A study of Mus musculus with 16 samples.

Results

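The genes described here are 39 genes of the fat cell, measured in RNA from whole mouse pancreas. They were chosen by symbol from a list of adipocyte genes that was drawn up with earlier results of these data known, and all 39 were among the 24411 genes of the count table. Of the 39, 37 passed the filter on low counts, as did 13660 genes in all. Cidea and Ucp1 did not pass, with totals of 43 and 6 counts over 16 libraries.

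Fat cells store triglyceride in a single large droplet coated by perilipins, and the nuclear receptor Pparg together with Cebpa switches on the genes for this. They take up fatty acids freed by lipoprotein lipase, release them again through lipolysis, and secrete hormones such as adiponectin and leptin. In the pancreas fat cells lie between the lobules and around the gland, and they are more frequent in obesity.

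The study asked how obesity and blockade of the cholecystokinin receptors change the pancreas. All mice were male C57BL6/J and 12 weeks old. The WT group held 5 mice on control water. The OB group held 7 Lep(ob/ob) mice on control water, which lack functional leptin and weighed 51.0 ± 1.98 g (SD, n = 7) against 27.7 ± 3.22 g (SD, n = 5) in WT. The OB_CCKRI group held 4 Lep(ob/ob) mice (54.8 ± 2.22 g, SD, n = 4) given a cholecystokinin receptor antagonist in drinking water for 6 weeks from 6 weeks of age. Of these, 2 had proglumide at 0.1 mg/ml (mice 69 and 72) and 2 had lorglumide at 0.05 mg/ml (mice 74 and 76). The labels give in-house breeding for WT and purchase for Lep(ob/ob) mice, whereas the methods of the study give purchase for both, so whether the source differed between genotypes is unclear. The labels give 2 batches, called A and B here. WT mice 5489, 5492 and 5494 and OB mice 417, 441, 447 and 472 belong to batch A. WT mice 58 and 59, OB mice 461, 463 and 464 and every treated mouse belong to batch B.

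Each library was poly(A) RNA from a piece of frozen, pulverised gland and held between 9870673 and 34452570 counts. Acinar markers summed to between 81179 and 560400 counts per 1000000 counts (CPM, after scaling). The 50 most counted genes took between 49.3% and 85.0% of a library. In a bulk library fewer fat cells and less RNA per fat cell cannot be told apart, and this holds for every level given here. Adipoq, Plin1, Cidec and 8 other members that mark fat cells were read as a set of 11 defining adipocyte genes. Their summed CPM ran from 44.4 in WT mouse 5489 to 952 in OB mouse 463, so fat cell RNA was present in every library. The next highest sums were 633 in treated mouse 69, 354 in OB mouse 461 and 339 in OB mouse 417. Cfd, which was lower in OB mice, is one of the 11 genes. It gave 75.3 of 172 CPM in WT mouse 5494 and 23.5 of 952 CPM in OB mouse 463. The sums of WT and OB mice therefore differ in make-up.

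Promoter sequences are shown for the reference gene Adipoq and for Lep and Cfd, the secreted proteins that moved furthest in opposite directions. Each runs from 250 bases before to 50 bases after the gene's start, 5′ to 3′, from RefSeq on GRCm38.p6, plus strand. Capitals mark the palindrome TTGCGCAA, the consensus bound by C/EBP factors. All motifs were searched on both strands. Adipoq lies at chr16:23146536-23158028, Lep at chr6:29060220-29073877 and Cfd at chr10:79890853-79892655 (GRCm38), and the windows are chr16:23146286-23146585, chr6:29059971-29060270 and chr10:79890603-79890902.
Adipoq: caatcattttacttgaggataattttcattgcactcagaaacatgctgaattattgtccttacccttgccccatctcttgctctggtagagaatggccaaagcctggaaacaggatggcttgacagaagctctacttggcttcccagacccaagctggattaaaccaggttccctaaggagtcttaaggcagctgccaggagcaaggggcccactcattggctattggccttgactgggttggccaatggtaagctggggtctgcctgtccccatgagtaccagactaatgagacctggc
Lep: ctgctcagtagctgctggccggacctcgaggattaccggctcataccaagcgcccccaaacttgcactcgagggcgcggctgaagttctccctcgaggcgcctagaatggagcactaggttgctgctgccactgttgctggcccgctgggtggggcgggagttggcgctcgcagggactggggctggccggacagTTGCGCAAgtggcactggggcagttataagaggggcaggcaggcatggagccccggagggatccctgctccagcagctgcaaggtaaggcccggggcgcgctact
Cfd: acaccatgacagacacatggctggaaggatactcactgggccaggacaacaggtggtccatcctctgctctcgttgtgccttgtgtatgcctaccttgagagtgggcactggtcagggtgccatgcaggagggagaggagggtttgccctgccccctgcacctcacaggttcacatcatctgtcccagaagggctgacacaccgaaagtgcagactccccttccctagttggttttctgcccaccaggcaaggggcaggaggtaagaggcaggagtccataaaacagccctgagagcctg
The Lep window held the palindrome 55 bases before the start. Of 32851 promoter windows of this length, 60 held it on either strand, or 0.183%. Windows were found for 28 members, 40 windows in all, and Lep was the only member with a match. The PPAR element AGGTCANAGGTCA was in 13 windows, or 0.0396%, and in no member window. The shorter AGGTCA, which the PPAR element contains, was in 16.3% of all windows and in 10 of the 40 member windows, and TATAAA was in 13.6% of all windows and in those of Cebpa, Pparg and Rbp4. A match is letters in a window, and neither a match nor its absence says whether a factor binds there.

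The first comparison asked which adipocyte genes differed between obese and lean pancreas. In OB mice 4 members were higher than in WT, namely Lep, Npr3, Mest and Sncg, and 2 were lower, Cfd and Adrb3. These were calls of edgeR's quasi-likelihood test with batch as a covariate and Benjamini-Hochberg adjustment over all 13660 genes. Over all genes 5.93% were called higher and 3.14% lower. Although 33 of 37 members had a log2 fold change above 0, 31 did not pass. Most members rose and fell together between OB mice, so counts of members by sign, here and below, are not independent observations. The number called higher ran from 3 to 10 when 1 mouse was left out (10 without treated mouse 69) and was 13 with DESeq2. The share of all genes called higher was also larger without mouse 69 and with DESeq2 than in the main fit, as given in the last section. At an unadjusted p under 0.05 there were 20 members higher and 2 lower, where 12.2% and 11.6% of all genes were. The median log2 fold change of the 37 was 1.43, beside -0.02 over all genes. Of the 11 defining adipocyte genes, 0 were called higher and 2 lower (Cfd and Adrb3), with a median of 1.43. DESeq2 called Aqp7, Cidec, Plin4 and Slc7a10 of the 11 higher. Of 17 members listed as also used by other pancreas cells, 3 were called higher (Npr3, Mest and Sncg) and 0 lower, with a median of 0.93. Of 8 islet markers 4 were also called higher in OB, with a median of 1.75. The part of other cells in Npr3, Mest and Sncg was not tested.

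**Figure D1:**
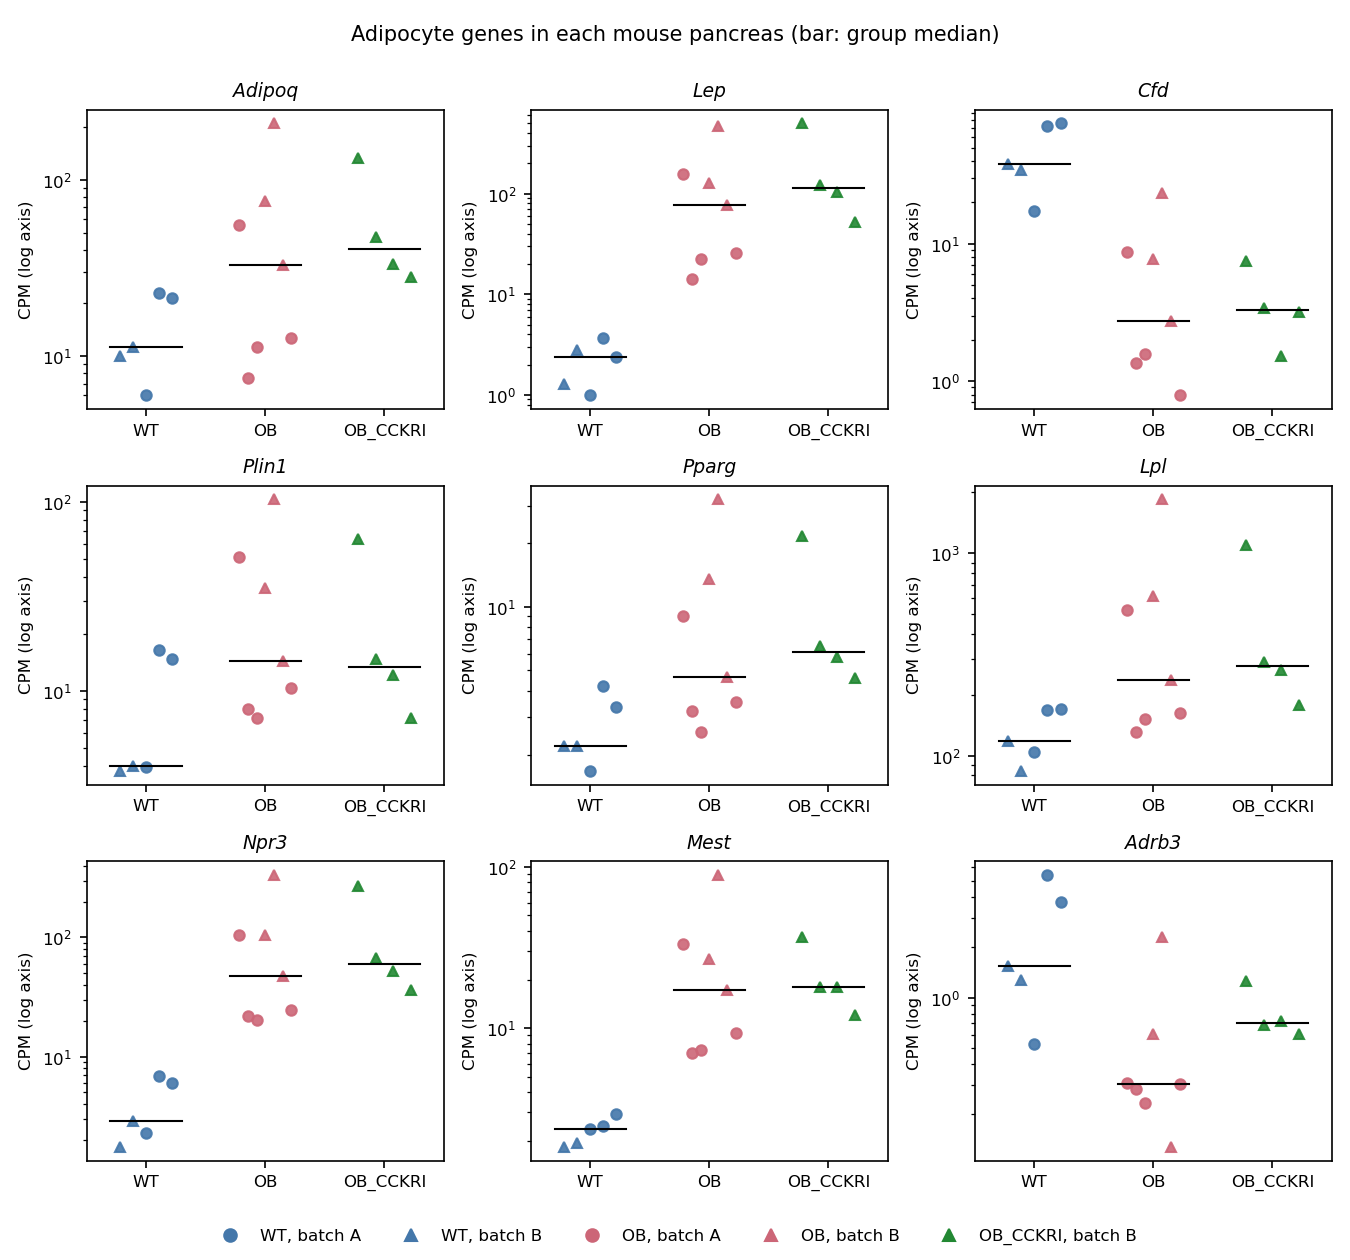
CPM of 9 adipocyte genes in each mouse, on log axes, by group, with circles for batch A, triangles for batch B and a bar at the group median. All 7 OB mice lie above all 5 WT mice for Lep, Npr3 and Mest, while Adipoq, Plin1, Pparg and Lpl overlap and OB mouse 463 is the highest of its group in each.

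Among the secreted proteins, adiponectin (Adipoq), an insulin-sensitising hormone made almost only by fat cells, was at 5.99, 22.9 and 21.5 CPM in the WT mice of batch A and at 10.1 and 11.3 in those of batch B. In OB mice it was at 7.54 CPM in the lowest, 33.0 in the median and 210.5 in the highest mouse. The groups overlapped, because 3 OB mice of batch A were at 7.54, 11.3 and 12.8. The log2 fold change was 1.43 ± 0.73 (SE, n = 7 and 5), with an adjusted p of 0.252.

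Leptin (Lep), the hormone through which fat stores restrain appetite, carries a nonsense mutation in Lep(ob/ob) mice, so its transcript is made but no working hormone follows. The counts do not read that base and do not check the genotype. Lep was at 0.986, 3.68, 2.38, 1.28 and 2.8 CPM in the 5 WT mice. In OB mice the lowest value was 14.2, the median 77.5 and the highest 477. No OB mouse was as low as any WT mouse, in either batch. The fold was 41.6, or 5.38 ± 0.92 on the log2 scale (SE, adjusted p = 0.00146), the largest among the 37 members.

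Adipsin (Cfd), the complement protease factor D, ran the other way. Its WT values were 17.4, 71.7, 75.3, 38.2 and 34.4 CPM. In OB mice it was at 0.787 in the lowest, 2.75 in the median and 23.5 in the highest mouse. Only OB mouse 463, the one richest in fat cell transcript, came above the lowest WT mouse. Within each batch the groups did not overlap. The log2 fold change was -3.15 ± 0.69 (SE, adjusted p = 0.00806).

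Of the other secreted proteins, Orm1, an acute-phase plasma protein, had a log2 fold change of 2.72 ± 0.91 (adjusted p = 0.0739). Orm1 shares 20.4% of its 50-base stretches with 2 other genes, so its counts are uncertain. Resistin (Retn), a fat cell hormone in mice, ranged from 2.2 to 5.35 CPM in WT and from 0.711 to 13.9 in OB, a log2 fold change of -0.10 ± 0.62, and Rbp4, the carrier of retinol in plasma, was at 0.68 ± 0.46. Neither passed.

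The proteins that coat the lipid droplet all had positive fold changes that did not pass. Perilipin 1 (Plin1), which gates access of lipases to the droplet, was at 3.94, 16.4, 14.7, 3.75 and 4.02 CPM in WT and at 7.17, 14.4 and 103 in the lowest, median and highest OB mouse. Plin4, another coat protein of the droplet, was at 3.26, 27.9, 22, 11.2 and 13.3 CPM in WT and at 17.2, 55.2 and 334 in the same order in OB. Cidec, which fuses droplets into a single large one, was at 2.65, 17, 11.3, 7.96 and 6.75 CPM in WT and at 7.68, 32.6 and 210 in OB. For all 3 genes the low OB mice of batch A lay within the WT range. Their log2 fold changes were 1.74 ± 0.80, 2.28 ± 0.75 and 2.24 ± 0.78 (SE), with adjusted p of 0.199, 0.0674 and 0.0849. Plin4 overlaps exons of Hdgfl2 on the other strand, and the strand setting of the counting is not given in the sources used here.

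Pparg, the master regulator of fat cell formation, was at 1.67, 4.21, 3.35, 2.2 and 2.19 CPM in WT and at 2.56, 4.66 and 32.3 in the lowest, median and highest OB mouse. Cebpa, its partner, which liver and other cells also use, was at 25.9, 38.1, 33.4, 14.3 and 11.9 CPM in WT and at 15.3, 26.5 and 63.5 in OB. Neither pair of groups was apart. The log2 fold change was 1.47 ± 0.61 for Pparg and 0.40 ± 0.41 for Cebpa (adjusted p = 0.146 and 0.596).

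Both lipolysis genes overlapped between groups as well. Hormone-sensitive lipase (Lipe) was at 5.16, 20.5, 15.8, 7.5 and 7.12 CPM in WT and at 9.95, 17.6 and 123 in the lowest, median and highest OB mouse. Adipose triglyceride lipase (Pnpla2), which takes the first fatty acid off triglyceride, was at 20.2, 37, 29.3, 17 and 13.9 CPM in WT and at 22.7, 31.7 and 87.5 in OB. The log2 fold changes were 1.56 ± 0.68 and 0.81 ± 0.41, with adjusted p of 0.174 and 0.244.

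None of the 7 triglyceride synthesis genes passed, with log2 fold changes from -0.13 for Gpam, which starts the pathway, to 2.75 for Dgat2 and a median of 1.19. Dgat2, which adds the last fatty acid, came nearest, at 8.42, 16, 19.6, 4.12 and 3.04 CPM in WT and 16, 29 and 256.8 in the lowest, median and highest OB mouse (adjusted p = 0.0527). Acsl1, which activates fatty acids, was at 29.3, 33.8, 39.1, 28.3 and 22 CPM in WT and at 26.9, 52.9 and 276 in OB. Gpd1, which supplies the glycerol backbone, was at 18.9, 22.1, 23.9, 10.2 and 10.1 CPM in WT and at 22.1, 30.8 and 202 in OB, with log2 fold changes of 1.19 ± 0.53 for Acsl1 and 1.64 ± 0.61 for Gpd1. Lpin1, a phosphatidate phosphatase of the same pathway, had every OB mouse (17.8 to 78.4 CPM) above every WT mouse (7.67 to 17.4 CPM), although its log2 fold change of 1.27 ± 0.41 did not pass (adjusted p = 0.0646). Dgat1, the other enzyme of the last step, and Agpat2, an acyltransferase earlier in the pathway, were at 0.33 and 0.93.

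Of the 5 lipid uptake genes none passed. Lipoprotein lipase (Lpl) was at 104.5, 169, 169.7, 119 and 83.8 CPM in WT and at 130.3, 237 and 1855 in the lowest, median and highest OB mouse. The fatty acid transporter Cd36 was at 22.8, 47.9, 49.3, 50.03 and 42.0 CPM in WT and at 34.7, 106 and 723 in OB. The fatty acid binding protein Fabp4 was at 27.7, 58.8, 53.0, 83.6 and 83.7 CPM in WT and at 31.5, 187 and 868 in OB. Vessels and macrophages use these genes too, and the 3 overlapped between groups with log2 fold changes of 1.61, 1.79 and 1.44 and adjusted p of 0.143, 0.1 and 0.153. The glycerol channel Aqp7 (2.25) and the insulin-regulated glucose transporter Slc2a4 (0.70) did not pass either.

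The 3 genes of carbon supply and lipogenic control did not pass. Pyruvate carboxylase (Pcx), which islets also use, was at 37, 57.3, 63.4, 22.9 and 19.5 CPM in WT and at 33.8, 57.8 and 135 in the lowest, median and highest OB mouse. Pck1, which makes glycerol phosphate from pyruvate in fat, was at 2.2, 17.6, 11.2, 5.76 and 3.53 CPM in WT and at 3.7, 10.3 and 57.1 in OB. Thrsp, a nuclear protein that follows lipogenesis, was at 5.16, 10.1, 13.3, 3.93 and 4.93 CPM in WT and at 4.41, 13.8 and 108 in OB. Their log2 fold changes were 0.73, 0.75 and 1.15.

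The receptors held a gene in each direction. Npr3, the clearance receptor that removes natriuretic peptides, was at 2.28, 6.82, 5.95, 1.74 and 2.86 CPM in WT and at 20.2, 47.8 and 335 in the lowest, median and highest OB mouse. The groups did not overlap in either batch, and the log2 fold change was 4.13 ± 0.83 (SE, adjusted p = 0.00473). Adrb3, the beta3-adrenergic receptor that triggers lipolysis in fat, was at 0.531, 5.42, 3.74, 1.55 and 1.28 CPM in WT and at 0.128, 0.306 and 2.3 in OB. Its groups overlapped in batch B through OB mouse 463 and in the pooled data, and its log2 fold change was -2.23 ± 0.67 (SE, adjusted p = 0.0481). Only 1 of 7 OB mice was above the filter's minimum of 0.667 CPM for Adrb3, and the call was lost in 11 of 16 fits that each left out 1 mouse and in 4 of the other 9 alternatives that tested it. Adrb3 was not tested in batch A alone or with at least 10 counts in every library. Tshr, the thyrotropin receptor, was at 0.531, 1.6, 2.89, 0.183 and 0.548 CPM in WT and at 0.924, 2.75 and 21.0 in OB, with a log2 fold change of 2.02 ± 0.90 (adjusted p = 0.179). The activin-type receptor Acvr1c was at 7.51, 11.8, 14.9, 10.4 and 9.25 CPM in WT and at 7.79, 12.1 and 19.0 in OB, with a log2 fold change of 0.12 ± 0.23.

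Ucp1, the uncoupling protein of brown fat, was at 0 counts in 12 of 16 libraries, and no library held more than 3. Zic1 was at 0 in all 16, and of 8 brown fat markers only Ppargc1a and Dio2, which other cells also use, passed the filter. Summed brown markers spanned 3.19 to 6.27 CPM in WT and 2.7 to 5.95 CPM in OB, and 4.04 to 9.78 CPM in treated mice.

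Among the remaining members, Mest, an imprinted gene that follows the growth of fat cells, was at 2.35, 2.47, 2.95, 1.83 and 1.95 CPM in WT, the narrowest range of the called genes. In OB mice it was at 7.04, 17.2 and 89.1 in the lowest, median and highest mouse, above every WT mouse in both batches. Its log2 fold change was 3.25 ± 0.59 (SE, adjusted p = 0.00237). Gamma-synuclein (Sncg), a protein of nerves and fat cells, was at 1.21, 2.74, 1.64, 1.55 and 1.7 CPM in WT and at 2.42, 16.2 and 85.5 in OB, where the lowest OB mouse lay under the highest WT mouse. Its log2 fold change was 3.23 ± 0.84 (SE, adjusted p = 0.0226), and the call was lost without WT mouse 5489, 58 or 59 or OB mouse 417 and in each batch alone. Carbonic anhydrase 3 (Car3), an abundant enzyme of fat and muscle, was at 35.6, 151, 136, 83.2 and 78.6 CPM in WT and at 23.0, 106 and 517 in OB, a log2 fold change of 0.09 ± 0.71. The membrane protein Adig (0.92) and the amino acid transporter Slc7a10 (2.30) did not pass. Mest and Slc7a10 overlap exons of Copg2 and Lrp3 on the other strand, as Npr3 and Adrb3 do those of predicted genes. Agpat2 overlaps exons of Egfl7, one of the endothelial markers, on the other strand. Lipe, Cebpa, Acsl1, Gpd1 and Acvr1c overlap exons of other genes there as well.

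The comparison was repeated within batches. In batch A alone, 4 members were higher in every OB than in every WT mouse (Lep, Lpin1, Npr3 and Mest) and 2 were lower (Cfd and Adrb3), where 10.7% and 10.3% of all genes separated in those directions. In batch B alone, with 3 OB and 2 WT mice, 33 of 37 members were higher in every OB mouse and Cfd was lower, where 17.2% and 15.7% of all genes separated. With both batches pooled 4 members stayed apart upward and 0 downward, against 2.92% and 1.12% of all genes. The median log2 fold change of the members was 0.68 in batch A (36 members) and 2.91 in batch B (37 members), beside 0.01 and 0.02 over all genes. Adipoq was at 0.48 in batch A and 3.28 in batch B, and Lep at 4.63 and 6.72. The signed log2 fold change of OB against WT was higher in batch B for 37 of 37 members, so that decreases were smaller there, as for Cfd (-3.98 in batch A and -1.70 in batch B). When that difference was tested as an interaction, 0 members passed, as did 0% of all genes in either direction, with 21 members higher in batch B at an unadjusted p under 0.05 in edgeR and 22 in DESeq2, where 5.53% and 6.60% of all genes were. The lowest adjusted p of a member was 0.342 in edgeR. DESeq2 called 0 as well. Without OB mouse 464 the edgeR interaction test called 7 members, namely Acsl1, Agpat2, Cebpa, Gpd1, Lpin1, Pcx and Thrsp, all with the higher value in batch B, where 2.51% of all genes were called higher there and 7.29% lower. In batch A alone Lep, Npr3, Mest and Cfd passed (adjusted p = 0.0218, 0.0254, 0.0359 and 0.0112), where 6.75% of all genes were called higher and 1.93% lower. In batch B alone, with 5 mice of these groups, 0 members passed in edgeR, where 0.0214% of all genes were called higher and 0.0356% lower. At an unadjusted p under 0.05 in batch B, 29 members were higher and 1 lower, where 8.79% and 8.13% of all genes were.

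Since every mouse held a different amount of fat cell transcript, each member was also read against Adipoq. Whether Adipoq transcript per fat cell was equal between groups was not tested, so a ratio can also move through Adipoq. In OB mice the highest value of a member was 16.3 times the lowest at the median over 36 members. As counts per 100 Adipoq counts this range was 2.59-fold, and it was narrower than that of the CPM for 29 of the 36. In treated mice the median range went from 5.19-fold to 1.57-fold, narrower for 32 of 36. In WT mice it went only from 3.22-fold to 2.62-fold, narrower for 20 of 36. Between groups, 6 members did not overlap upward (Lep, Orm1, Plin4, Cidec, Npr3 and Sncg) and 4 downward (Retn, Cfd, Adrb3 and Car3), where 0.22% and 0.498% of all genes separated in this way. A gene that does not follow Adipoq takes on the spread of Adipoq, 27.9-fold in OB mice, and can hardly separate by this ratio. The members were picked as fat cell genes, so these shares are not a like background for them. A member that other pancreas cells also use gives a high ratio where fat cells are few, so the ratio is a fat cell measure only for genes of fat cells. Npr3, Mest, Sncg, Lpin1 and Slc2a4 are among the 17 members listed as used by other pancreas cells too.

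**Figure D2:**
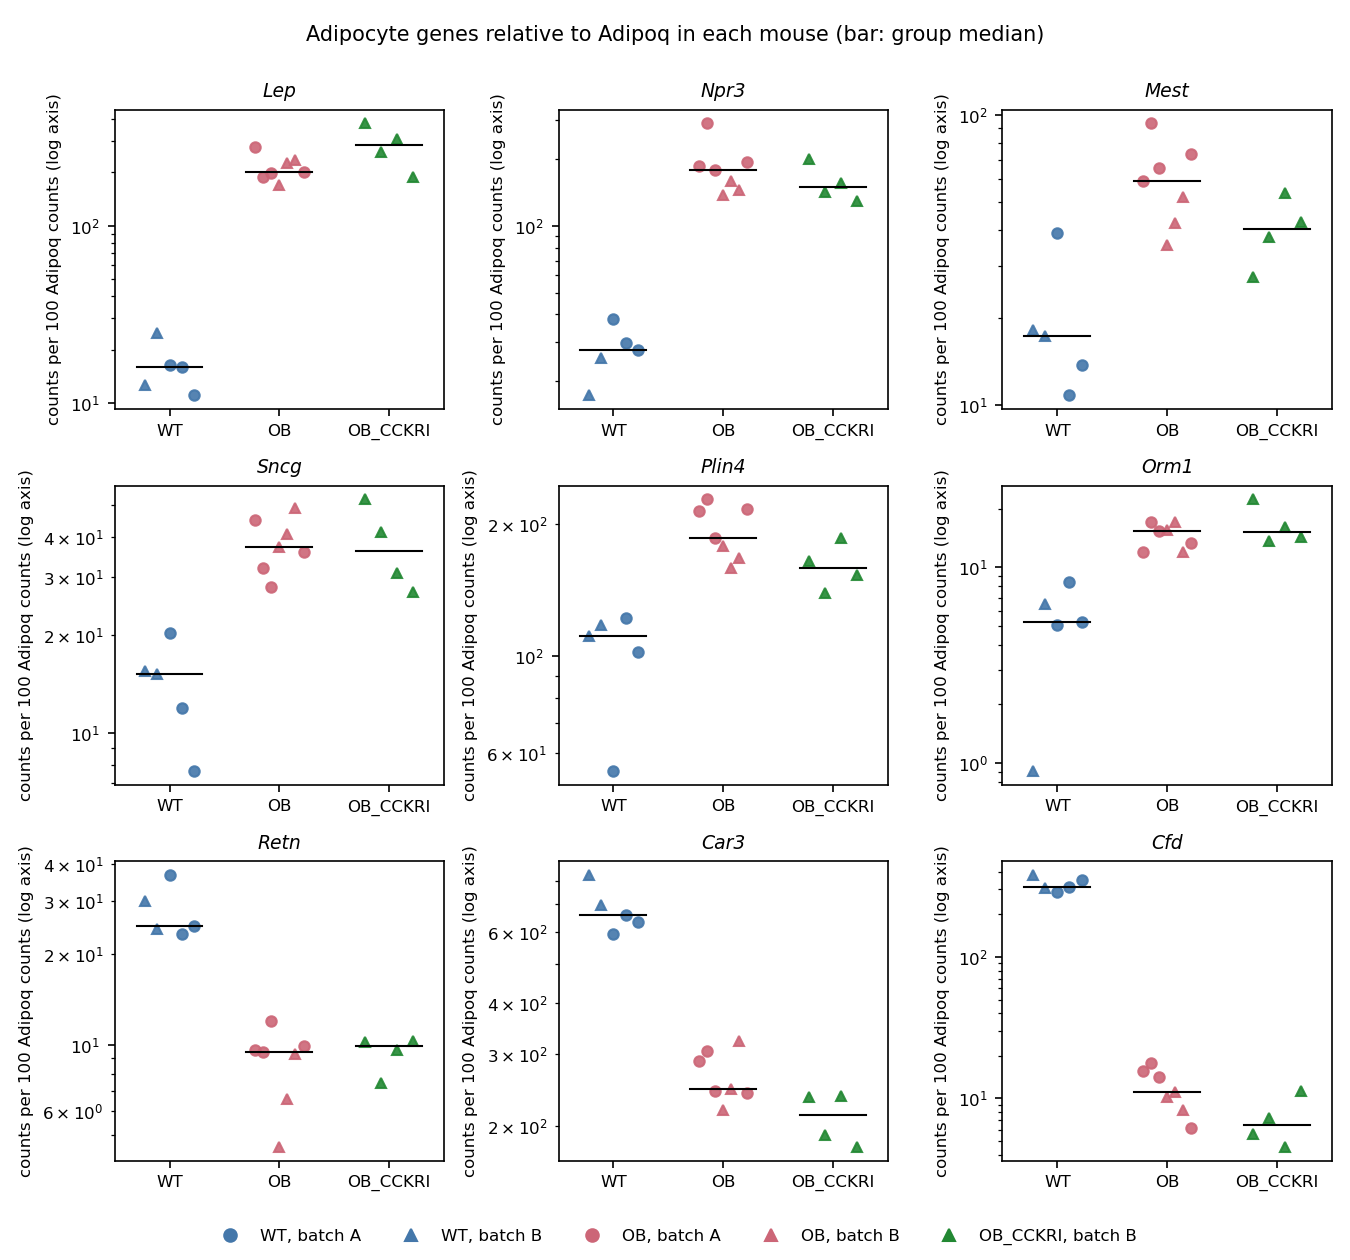
Counts of 9 adipocyte genes per 100 Adipoq counts in each mouse, on log axes, with circles for batch A, triangles for batch B and a bar at the group median. Lep and Cfd stand apart between WT and OB, from 11.1 to 24.9 against 170.1 to 279 for Lep and from 289.9 to 380.0 against 6.16 to 17.9 for Cfd.

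Per 100 Adipoq counts, Lep was at 16.5, 16, 11.1, 12.7 and 24.9 in WT mice and at 170.1 in the lowest, 199 in the median and 279 in the highest OB mouse. OB mouse 441, with as little Adipoq as WT mice, had 189. The difference of the mean log2 ratio was 3.76, which an exact two-sided permutation test within batches put at p = 0.00286, the smallest that its 350 arrangements allow (n = 7 and 5). Within batch A it was 3.90 (exact p = 0.0286, the smallest possible) and within batch B 3.55 (exact p = 0.1, the smallest possible).

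Cfd per 100 Adipoq counts was at 289.9, 313, 349.5, 380.0 and 305 in WT mice and at 6.16, 11.1 and 17.9 in the lowest, median and highest OB mouse. Adrb3 was at 8.86 to 23.6 in WT and 0.387 to 3.77 in OB, Retn at 23.3 to 36.7 and 4.56 to 12.0, and Car3 at 594 to 827 and 219 to 322. Npr3 was at 17.3 to 38 in WT and 138 to 291 in OB, and Sncg at 7.63 to 20.3 and 28.1 to 48.9. Mest overlapped slightly, at 10.8 to 39.2 against 35.6 to 93.4, through WT mouse 5489, which had the least Adipoq.

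With the log2 CPM of Adipoq added to the model, 10 of 36 members were higher in OB than in WT and 5 were lower, where 7.09% and 4.89% of all genes were called. The 10 were Lep (3.64 ± 0.24, SE, on the log2 scale), Npr3 (2.77 ± 0.18), Mest (2.08 ± 0.21), Sncg (1.49 ± 0.24), Dgat2 (1.18 ± 0.20), Orm1 (1.16 ± 0.26), Plin4 (0.92 ± 0.18), Aqp7 (0.81 ± 0.26), Cidec (0.72 ± 0.16) and Lpin1 (0.58 ± 0.19). The 5 were Cfd (-4.77 ± 0.23), Adrb3 (-3.45 ± 0.41), Retn (-1.46 ± 0.20), Car3 (-1.32 ± 0.15) and Slc2a4 (-0.75 ± 0.22). Retn and Car3, near 0 in the first fit, were 2.75-fold and 2.5-fold lower at equal Adipoq. Adjusted p ranged from 6.34e-11 for Cfd to 0.0493 for Aqp7. The median over the 36 members was 0.18, beside -0.04 over all genes. By CPM before TMM scaling, on which the filter works, Aqp7 was above the minimum in 2 of 5 WT and 5 of 7 OB mice, and Orm1 in 3 of 5 and 7 of 7. Leaving out each mouse in turn, Aqp7 kept its call in 2 of 16 fits, Lpin1 in 7 and Slc2a4 in 12, and the other 12 members kept theirs in all 16. Aqp7 and Lpin1 were also lost with Plin1 in place of Adipoq, and all 3 without the batch term.

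**Figure D3:**
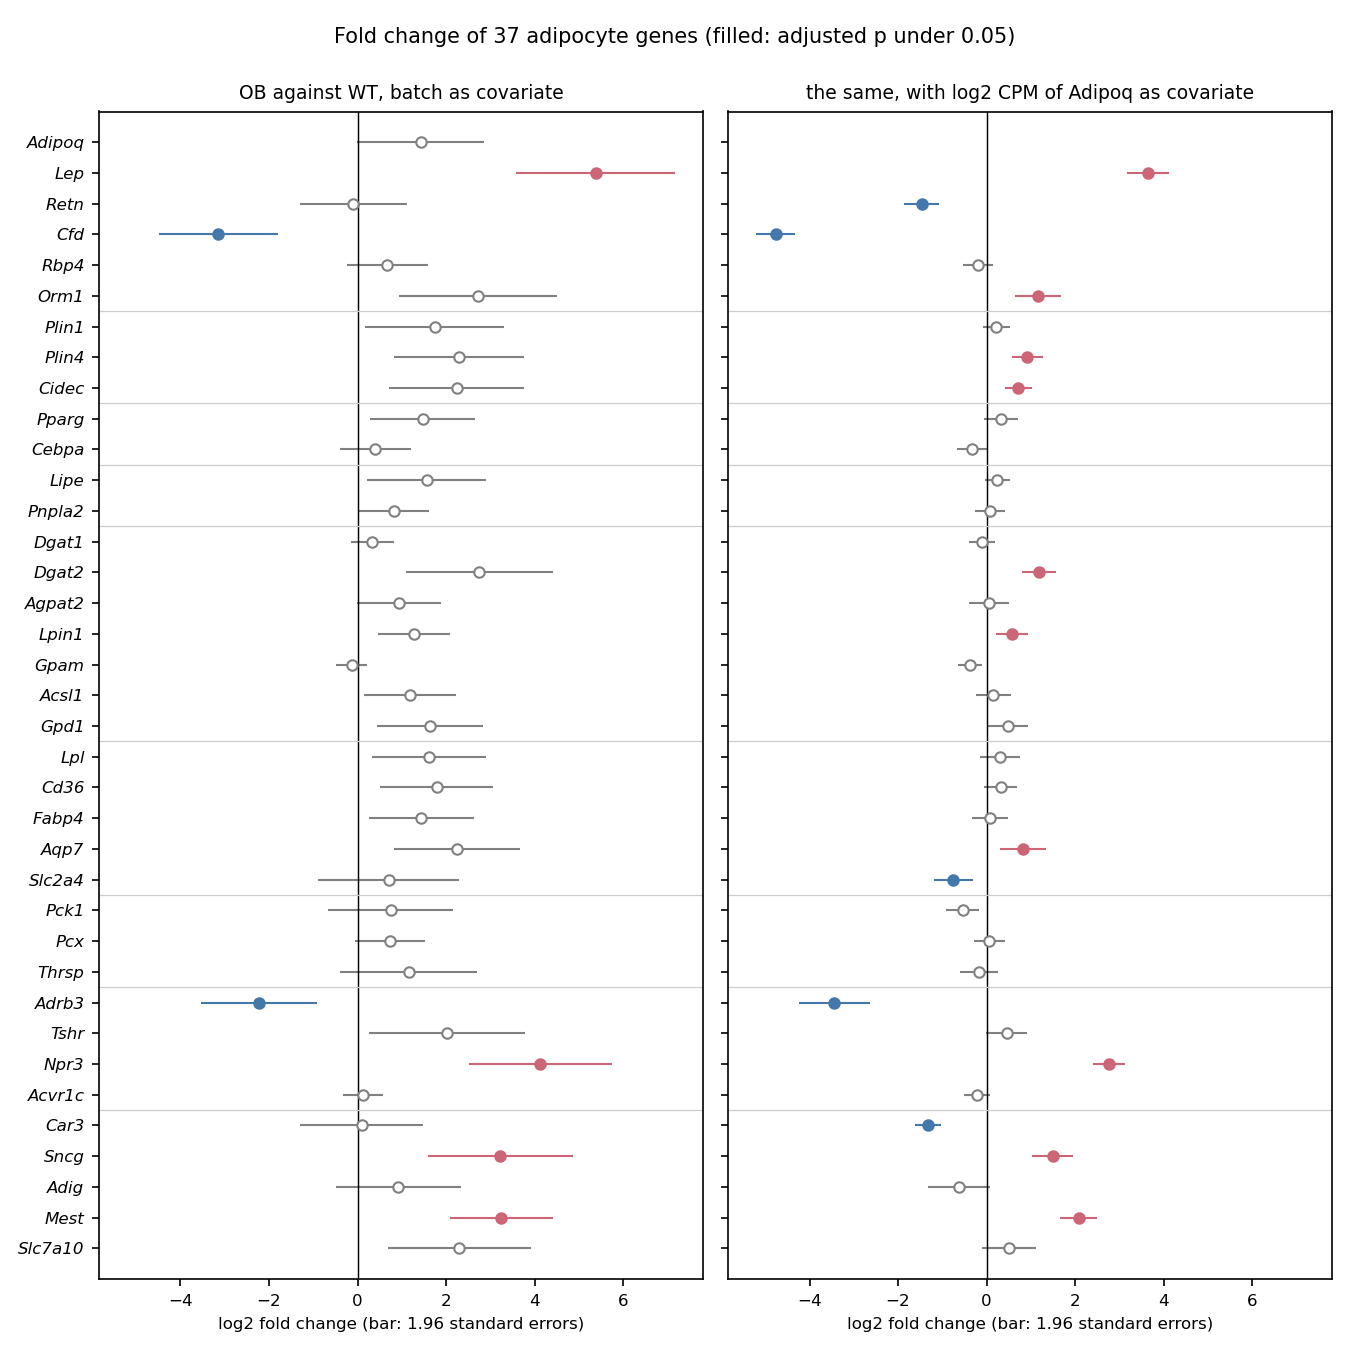
Log2 fold change of OB against WT for 37 adipocyte genes grouped by role, with bars of the 95% interval, on the left with batch as covariate and on the right with the log2 CPM of Adipoq added (36 genes). Filled points passed an adjusted p of 0.05, 4 higher and 2 lower on the left and 10 higher and 5 lower on the right, where the bars are shorter.

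Of 30 other genes of fat cells fixed as a list, 27 were tested and 2 were higher and 2 lower in OB mice, where 5.93% and 3.14% of all genes were called. The trafficking regulator of glucose transport Trarg1 (row Tusc5) had a log2 fold change of 2.77 ± 0.76 (SE, adjusted p = 0.0298), and Sfrp5, a secreted Wnt inhibitor, one of 1.74 ± 0.43 (adjusted p = 0.0172). Cyp2e1, a cytochrome P450 of liver and fat, was at -2.71 ± 0.59 (adjusted p = 0.00769) and the carboxylesterase Ces1f at -2.52 ± 0.71 (adjusted p = 0.0332). The median over the 27 was 0.16.

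Markers of other cells were read beside the adipocyte genes. OB mouse 463, the highest in the 11 defining adipocyte genes, was also the highest in the summed markers of macrophages (786 CPM), lymphocytes and lymph node (94.5 CPM), fibroblasts (1222 CPM), endothelium (163 CPM) and mesothelium (151 CPM). The 6 macrophage markers summed to 128 to 209.6 CPM in WT and 72.5 to 786 CPM in OB, and 0 of 6 passed between them. The 8 lymphocyte markers, of which 6 were tested, summed to 11.7 to 48.4 CPM in WT and 1.77 to 94.5 CPM in OB, and none passed. Duct markers were lowest in mice 463 and 69, at 147 and 156 CPM, and acinar markers lowest in mouse 69. Mouse 69, the second in adipocyte genes, had 544 CPM of fibroblast markers, below WT mice 5492 and 5494, and 89.4 CPM of endothelial markers. Its macrophage markers (289.7 CPM) and lymphocyte markers (49.45 CPM) were above those of every WT mouse. OB mice 461 and 417, next in adipocyte genes, had macrophage sums of 345 and 267 CPM. Their fibroblast sums were 903 and 907 CPM, and both kinds of sum were above every WT mouse. Between OB and WT, 1 of 6 duct markers was called higher (Krt7) and 1 of 8 acinar markers lower (Ptf1a). The shares of all genes called were 5.93% higher and 3.14% lower. The median log2 fold change was -0.22 over the duct markers and -0.19 over the acinar markers. Of 6 fibroblast, 6 mesothelial and 6 endothelial markers none passed. The summed islet markers were lowest among the 7 OB mice in mouse 463, at 2567 CPM. The part of these cells in the adipocyte values was not tested.

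**Figure D4:**
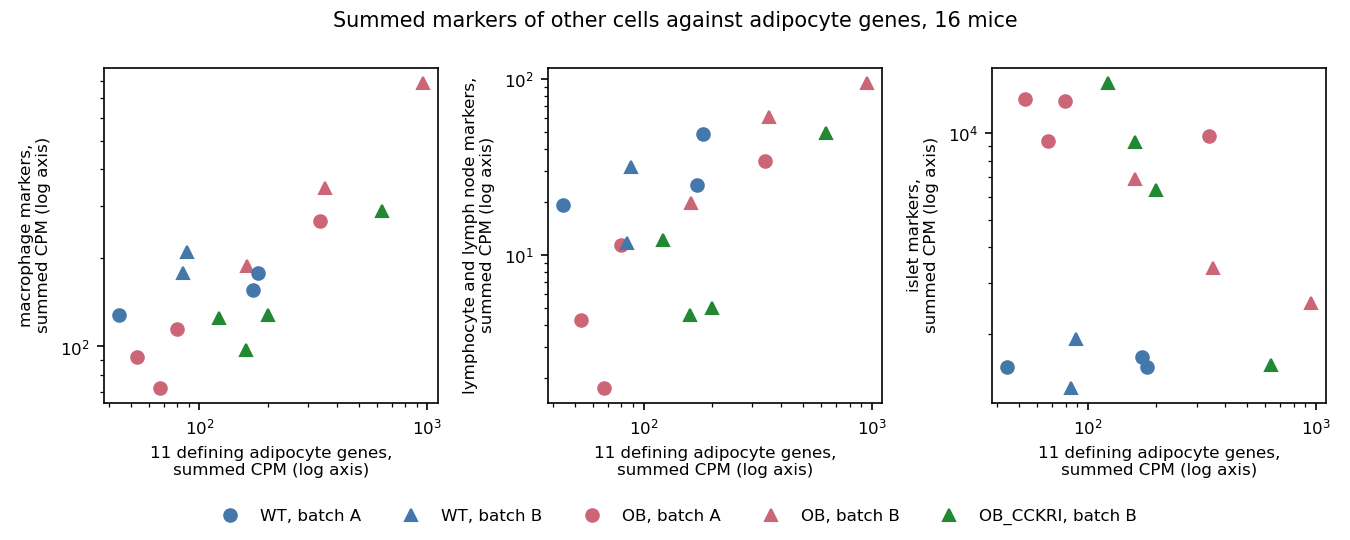
Summed CPM of macrophage, lymphocyte and islet markers in each of 16 mice against the summed CPM of 11 defining adipocyte genes, on log axes. OB mouse 463 is at the top right for macrophage and lymphocyte markers, while the islet markers of WT mice stay between 1303 and 1920 CPM.

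The second comparison asked whether antagonist treatment changed the adipocyte genes of Lep(ob/ob) mice. The OB mice are those of the first comparison. Between OB_CCKRI and OB mice 0 of 37 members passed in either direction, by edgeR's quasi-likelihood test and by DESeq2, and 0 were at an unadjusted p under 0.05 in edgeR. Over all genes 0.0293% were called higher and 0.0293% lower in edgeR. At an unadjusted p under 0.05, 7.54% of all genes were higher and 6.74% lower. The median log2 fold change was -0.48, beside -0.01 over all genes, with 33 of 37 below 0. As most members moved together between mice, these signs are not independent. In batch B, which held both groups, no member separated 4 treated from 3 untreated mice, where 4.92% of all genes separated upward and 3.57% downward.

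Adipoq was at 133 and 47.3 CPM in the proglumide mice and at 33.5 and 28.2 in the lorglumide mice, beside 75.8, 210.5 and 33.0 in the OB mice of batch B. Its log2 fold change was -0.33, with a 95% interval from -1.78 to 1.13. Lep was at 502, 123, 103 and 52.8 CPM in mice 69, 72, 74 and 76, beside 129.03, 477 and 77.5 in the same OB mice. Its log2 fold change was 0.12 (-1.45 to 1.69). These fold changes, and those of the other genes here, come from the fit over all 16 libraries with the same batch term for all groups. They are thus not the differences between the mice listed. Within batch B, mean Adipoq was 60.5 CPM in treated and 106 CPM in OB mice. Mean Lep there was 195 CPM in treated and 228 CPM in OB mice, lower in treated mice although its fitted change was positive. Cfd was at 7.49, 3.43, 1.52 and 3.17 CPM, beside 7.75, 23.5 and 2.75, a log2 fold change of -1.08 (-2.61 to 0.45). Mest was at 36.8, 18.0, 18.0 and 12.1 CPM, beside 27.0, 89.1 and 17.2, at -0.75 (-1.87 to 0.36). Only Dgat1, Gpam and Acvr1c had intervals inside 1 log2 unit in both directions, and the intervals of the other 34 members reached beyond it. Plin1 was at 63.2, 14.7, 12.1 and 7.21 CPM, at -0.59 (-2.19 to 1.01), and Pparg at 21.6, 6.5, 5.77 and 4.58 CPM, at -0.43 (-1.64 to 0.78). Npr3 was at 268, 67.1, 52.6 and 36.5 CPM, at -0.16 (-1.64 to 1.32). Mouse 69 was the highest of the 4 for each of these genes, and its top 50 genes took the smallest share of its counts, 49.3%. The antagonists differed in dose and had 2 mice each, and they were not compared.

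With Adipoq as a covariate the intervals of 33 of 36 members lay inside 1 log2 unit. Again 0 members passed, where 1.7% of all genes were called higher and 1.95% lower, although 8 members were lower at an unadjusted p under 0.05, where 10.9% of all genes were. Lep was at 0.36 (-0.07 to 0.79), Npr3 at 0.10 (-0.25 to 0.44), Cfd at -0.70 (-1.19 to -0.20) and Cebpa at -0.54 (-0.92 to -0.17, adjusted p = 0.0992, the lowest of the members).

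In the fit without Adipoq, the 6 macrophage markers were lower in treated than in OB mice at an unadjusted p under 0.05, as were 6.74% of all genes, with a median log2 fold change of -1.18, and 0 of 6 passed. Likewise none of 6 mesothelial markers (median -0.99, 3 at an unadjusted p under 0.05) or 6 fibroblast and fat progenitor markers (median -0.66, 4 at an unadjusted p under 0.05) passed. Whether their level bears on the adipocyte values was not tested.

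**Figure D5:**
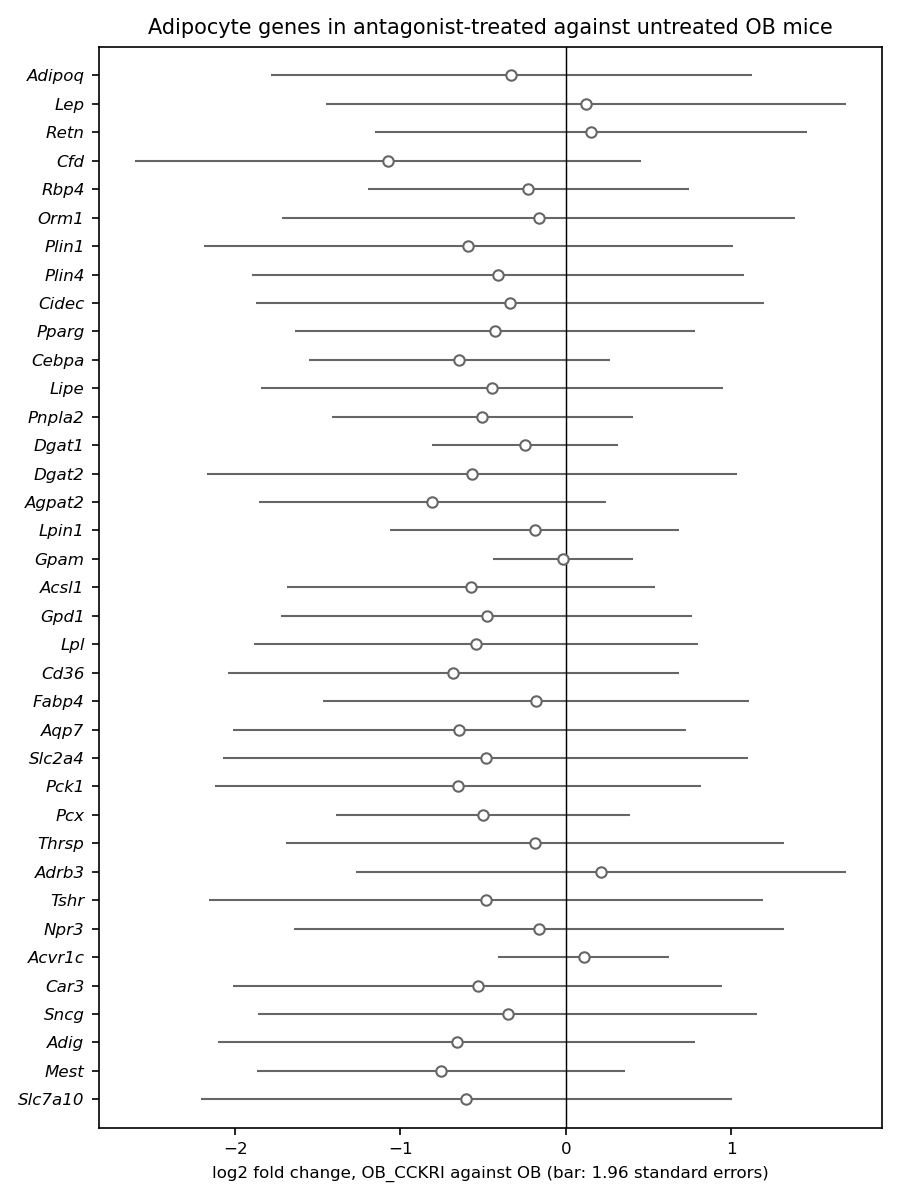
Log2 fold change of OB_CCKRI against OB mice for 37 adipocyte genes, with bars of the 95% interval. All points are open because none passed, 33 lie below 0, and the bars of Dgat1, Gpam and Acvr1c are the only ones inside 1 log2 unit.

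Against WT, the treated mice had Lep (5.50 ± 1.10, SE, on the log2 scale) and Npr3 (3.97 ± 1.03) higher and Cfd (-4.23 ± 0.95) lower, with adjusted p of 0.00585, 0.0289 and 0.0115. All treated mice were in batch B, and the fit used the same batch term for all groups. For Cfd the change of OB against WT was -3.98 in batch A and -1.70 in batch B. The fitted values are thus not the differences within batch B, where mean Cfd was 3.90 CPM in treated and 36.3 CPM in WT mice. The Npr3 call was lost without WT mouse 5489, 58 or 59, OB mouse 417 or 461, or treated mouse 69, with the lorglumide mice alone and in batch B alone. The Lep and Cfd calls were lost in batch B alone as well, and Cfd also with the proglumide mice alone. Over all genes 4.22% were called higher and 1.35% lower. Of 8 islet markers 5 were also called higher in treated mice than in WT, with a median log2 fold change of 2.09. The part of islet cells in Npr3 was not tested. This comparison shares its WT mice with the first one and its treated mice with the second. The lowest Lep value of a treated mouse, 52.8 CPM, was above the highest of a WT mouse, 3.68 CPM, and the highest Cfd value, 7.49 CPM, was below the lowest of WT, 17.4 CPM. Per 100 Adipoq counts the treated mice had 187 to 377 Lep counts, 129.7 to 201 Npr3 counts and 4.53 to 11.2 Cfd counts.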

How the data were processed

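RNA was measured in pancreas of 16 mice in 3 groups, WT (n = 5), OB (n = 7) and OB_CCKRI (n = 4). The authors deposited raw read counts per gene, used here. Per the labels' processing notes they ran Trim Galore 0.6.7, cutadapt 3.5, STAR 2.7.9 on mm10, and DESeq2. The counting program, its strand setting and the annotation are not given in the sources used here. Their normalized table is the counts times a constant per library and was not used. Totals were 9870673 to 34452570 counts, and members with few counts are the least precise.

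The 39 members and all gene lists were chosen with earlier results of these data known. Members were ordered by role. The 3 with the highest mean log2 CPM per role, and Adipoq, Lep, Pparg and Ucp1, were given by mouse, and Adrb3 and Lpin1 were added after their values were seen. Of the other adipocyte genes, the 4 with the largest change among those passing were named.

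Counts were filtered (filterByExpr, minimum near 0.667 CPM), scaled by TMM and fitted in edgeR 4.0.16 (R 4.3.3) by the quasi-likelihood test with group and batch over all 16 libraries, with Benjamini-Hochberg adjustment over 13660 genes and a threshold of 0.05. CPM use these scaling factors, and log2 CPM a prior count of 2. Intervals are the log2 fold change plus and minus 1.96 standard errors. The finite degrees of freedom of the test would make 95% intervals wider than these. Further fits added log2 CPM of Adipoq or the interaction of genotype and batch. Exact permutation tests were two-sided. DESeq2 1.42.0 and the alternatives named at the end were also run. The fit was run on simulated data too, and no result given here rests on that run. Libraries of 1 group differed by more than counting noise (chi-square per gene of at least 7.99). Positions come from GENCODE M21 on GRCm38, which is mm10, and promoters from RefSeq. Figures used matplotlib 3.10.9.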

Additional observations from a re-analysis of the deposited data

Results flagged for a closer look

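Each group of each member, 117 in all, was checked for a mouse far from the others of its group on the log2 CPM scale, by its gap to the nearest mouse as a share of the group's range. Chance gives about 1 in 20 groups, or 5.85, and 10 were found. Of these, 6 were treated mouse 69 as the highest of 4, for Acsl1 (share 0.915, 163.97 CPM against 42.4 to 47.6), Dgat1 (0.891, 10.7 against 5.83 to 6.23), Pck1 (0.851, 27.6 against 6.81 to 8.4), Pcx (0.879, 83.0 against 26.7 to 30.6), Pnpla2 (0.955, 61.8 against 17.6 to 18.6) and Retn (0.873, 13.6 against 2.9 to 3.54). Cd36 was lowest in WT mouse 5489 (0.777, 22.8 CPM against 42.0 to 50.03). Ucp1 gave the other 3, each from at most 3 counts, in OB mouse 464 (0.705), treated mouse 74 (1) and WT mouse 5494 (1). No member's difference between batches passed the interaction test.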

How the results depend on the processing

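The main counts were 4 members higher and 2 lower in OB than in WT. The number higher was 13 with DESeq2 (7.80% of all genes), 13 without mice 463 and 69 (7.43%, chosen after seeing the data), 7 without the batch term (4.41%) and 0 in batch B alone (0.0214%), beside 5.93% of all genes for the main 4. The number lower was 1 without the batch term (1.43% of all genes), with total counts alone (0.754%), with at least 10 counts in every library (2.88%), in the groups compared alone (3.37%) and in batch A alone (1.93%), and 0 in batch B alone (0.0356%), beside 3.14% for the main 2. Leaving out each mouse in turn gave 3 to 10 higher (7 without OB mouse 447 or 464, with 5.50% and 6.78% of all genes, and 10 without treated mouse 69, with 6.95%) and 1 to 2 lower. Lep, Npr3, Mest and Cfd passed in every setting other than batch B alone.

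For OB_CCKRI against WT the number higher was 7 without the batch term (5.09% of all genes), 6 in the groups compared alone (1.42%), 4 with DESeq2 (5.09%), 1 with lorglumide mice alone (4.63%) and 0 in batch B alone (0.0641%). The number lower was 0 in batch B alone (0.0285%) and with proglumide mice alone (0.38%). Leaving out a mouse gave 1 to 6 higher, with 6 without OB mouse 463 (5.02% of all genes). With Adipoq as covariate, added after seeing the data, 8 were higher and 7 lower (7.86% and 8.60% of all genes, beside 4.22% and 1.35%), and the log2 fold changes of Retn (-1.10), Slc2a4 (-0.80) and Pck1 (-0.86) turned negative and passed. OB_CCKRI against OB gave 0 members in every setting run. The interaction gave 0 to 7 when a mouse was left out, 7 without OB mouse 464. At equal Adipoq the counts ran from 8 to 10 higher and 4 to 7 lower. The Lep to Adipoq difference was 3.55 in batch B (exact p = 0.1) and 3.63 to 3.93 with a mouse left out. The causes of these shifts were not tested. Scaling by total counts moved the median of all genes by up to 0.49 on the log2 scale, so levels without TMM are shifted between groups. No paired analysis was possible because no mouse number occurs in 2 groups. Low counts limit Adrb3, Aqp7, Adig, Slc2a4, Orm1, Tshr and Slc7a10.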
